A study of Mus musculus with 48 samples.

Results

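Control jejunum was compared between circadian time 1 (CT1) and circadian time 21 (CT21), the passage from the end of the active phase to the start of the rest phase of a nocturnal animal held in constant darkness. The comparison used every library of the deposited count table whose name gave the control genotype and one of these times, 4 at CT1 and 4 at CT21, which is 8 of the 47 libraries with a column in the table (the labels describe 48). The samples were whole jejunum, the middle stretch of the small intestine, from mice labelled bmal1fl/fl. Both groups thus carried floxed Bmal1 alleles, in which the gene is flanked by recombination sites but intact. Knockout mice labelled Bmal1iec-/- (4 libraries at each of these times) were used to ask whether a change differed between genotypes. Knockout libraries also entered the shared model, and so the gene filter and the spread behind the control p-values. The series also holds CT5, CT9, CT13 and CT17. The promoter driving the recombinase, age, sex and feeding were not given in the sources used here. The labels do not tie libraries to separate mice, so the spread behind the p-values, pooled over the libraries of all 12 genotype and time groups, may be technical.

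The circadian clock is a loop of transcription factors. Arntl (also called Bmal1) pairs with Clock or Npas2 and binds E-boxes in the promoters of the Per, Cry, Nr1d and Bhlhe genes; the Per and Cry proteins then inhibit that pair. A second loop sets the repressors Nr1d1 and Nr1d2 against the activator Rora at shared elements, and the D-box factors Dbp, Tef and Hlf oppose Nfil3. In the small intestine this machinery is known for daily cycles of nutrient transporters and of xenobiotic and lipid enzymes.

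Library totals were 4.34 to 5.43 M counts at CT1 and 4.49 to 5.16 M at CT21. Fabp1, Sis, Apoa4 and Alpi were abundant, enterocyte genes of the proximal and middle small intestine. The ileal genes Fabp6 and Fgf15 had 12 and 5 counts over the 8 libraries, and the pancreatic genes Pnlip and Prss2 had 0. One library stood apart. In CT21 replicate 1 relative log expression sloped with log2 exon length by −0.29, against −0.02 to 0.03 in the other CT21 libraries, so long genes read low in it. On the GC share of the transcript its slope was 4.89, against −1.21 to 0.29, and the effects of length and GC were not separated. Its spread of relative log expression (interquartile range) was 0.820 against 0.296 to 0.345, and its mitochondrial share 2.86% against 4.03 to 4.3%. Calls of single genes and medians of gene lists are therefore given also without it. A further fit left out control CT21 replicate 1 and 4 knockout libraries, the 5 departing libraries below. The 4 were replicates 1, 2 and 3 of CT1 and replicate 4 of CT21. In that order their length slopes were −0.15, −0.17, −0.28 and −0.34, and their interquartile ranges 0.686, 0.554, 0.875 and 1.03. Their mitochondrial shares were 5.08, 7.34, 2.67 and 2.42%, and their GC slopes 1.66, −0.34, 5.85 and 6.67. The first 2 thus lacked the low mitochondrial share and steep GC slope of control CT21 replicate 1.

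From CT21 to CT1, Nr1d1 had the largest rise and Per2 the largest fall among the genes called with and without CT21 replicate 1 that averaged at least 5 CPM (counts-per-million, the counts of a gene over the scaled total of its library). The repressor gene Nr1d1 rose 17.0-fold and its paralogue Nr1d2 rose 3.26-fold, while Per2, Cry1, Bhlhe40, Tef and Cry2 fell, to between 0.198 and 0.525 of their CT21 means. Outside the clock, the cytochrome P450 gene Cyp2c55 and the sugar transporter gene Slc2a7 rose, and the sulfate transporter gene Slc13a1, the glucocorticoid-induced Tsc22d3 and the kynurenine aminotransferase gene Kyat1 fell. Of 15646 genes tested, 75 passed an adjusted p of 0.05 (0.479%) by edgeR's quasi-likelihood test with Benjamini-Hochberg adjustment, 26 higher at CT1 (0.166%) and 49 lower (0.313%). The ranges of the 2 groups did not overlap for 71 of the 75, where 7.31% of all genes showed such separation (3.57% higher and 3.75% lower at CT1). Such separation was also a condition for naming a gene by its size of change, so it adds no support for the genes so named. Without CT21 replicate 1 the test called 30 genes (0.192%), 12 higher (0.0767%) and 18 lower (0.115%), and 29 of these were among the 75, which is 38.7% of the longer list and 96.7% of the shorter one. Without the 5 departing libraries it called 152 genes (0.971%), 56 higher (0.358%) and 96 lower (0.614%), and 57 of the 75 were among them.

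The number of calls moved with nearly any single library. The higher genes numbered 7, 11 and 6 without CT1 replicates 1, 2 and 3, and 12, 10 and 15 without CT21 replicates 1, 2 and 3. The lower genes numbered 10, 15, 13 and 74 without CT1 replicates 1, 2, 3 and 4, and 18 and 28 without CT21 replicates 1 and 2. A set of 13 genes was called with all libraries and without each of the 8 in turn, among them Nr1d1, Nr1d2, Pim1, Per2, Tsc22d3, Cry1, Kyat1, Bhlhe40, Tef, Tcim, Cry2 and Usp2. The plot of both fits shows how close the fold changes lay to each other even where a call was lost.

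**Figure D1:**
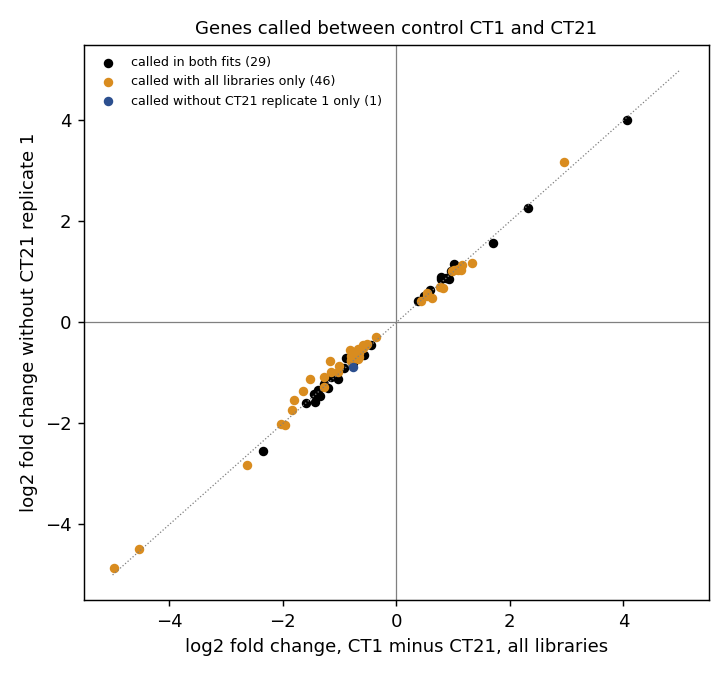
Log2 fold change (CT1 minus CT21) of each called gene with all libraries (x axis) and without CT21 replicate 1 (y axis), with the dotted line marking equal values. The 29 genes called in both fits are black, the 46 called with all libraries only are orange, and the 1 called without that library only is blue; every point lies in the same quadrant in both fits.

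The Nr1d repressor genes rose. Nr1d1, which encodes the heme-binding repressor REV-ERB alpha, read 33.9, 24.3, 34.7 and 37.0 CPM in the CT1 libraries and 1.61, 2.09, 2.94 and 0.985 CPM at CT21. Every CT1 library lay far above every CT21 library, and the log2 fold change was 4.06 (SE 0.27, adjusted p = 7.1e-15; 4.0 and 3.3e-13 without CT21 replicate 1). Nr1d2, encoding the related repressor REV-ERB beta, read 32.7, 21.9, 24.6 and 23.0 CPM at CT1 and 5.30, 9.14, 6.86 and 10.05 CPM at CT21. Its groups did not overlap either, and its log2 fold change was 1.69 (SE 0.26, adjusted p = 1.4e-04; 1.56 and 0.00293 without CT21 replicate 1). Nr1d1 shares 263 exonic bases with Thra, the thyroid hormone receptor alpha gene on the opposite strand, and the strand setting of the counting is not given in the sources used here. Thra read 97.7 to 130 CPM at CT1 and 74.5 to 91.6 CPM at CT21 (log2 fold change 0.43, SE 0.10, adjusted p = 0.0357), and this call was lost in 6 of the 8 fits that left out 1 library, among them that without CT21 replicate 1 (0.121).

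Bhlhe40, a repressor that competes at E-boxes, read 77.8, 63.3, 54.6 and 93.3 CPM at CT1 and 192, 171, 149 and 185 CPM at CT21 without overlap (log2 fold change −1.27, SE 0.14, adjusted p = 1.7e-07; −1.22 and 1.8e-06 without CT21 replicate 1). In bulk tissue, fewer cells of a type and less RNA per cell cannot be told apart.

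The genes of the Per and Cry inhibitors fell. Per2 read 10.9, 8.69, 9.49 and 16.7 CPM at CT1 and 29.5, 81.3, 63.5 and 56.5 CPM at CT21. Its lowest CT21 value was that of replicate 1, and the fall was larger without it (log2 fold change −2.34, SE 0.30, adjusted p = 2.9e-06; −2.55 and 5.5e-07). Cry1 showed the same ordering, with 14.7, 10.1, 14.7 and 26.8 CPM at CT1 and 28.6, 54.3, 44.7 and 49.3 CPM at CT21, where replicate 1 was again the lowest and lay just above the highest CT1 library (−1.43, SE 0.22, adjusted p = 1.4e-04; −1.58 and 1.7e-05). Cry2 read 17.8, 20.0, 19.2 and 25.7 CPM against 41.2, 35.6, 39.2 and 41.6 CPM, with no overlap (−0.93, SE 0.15, adjusted p = 3.6e-04; −0.90 and 0.00173). Per3 stood at 4.10 to 5.65 CPM at CT1 and 7.14 to 14.6 CPM at CT21 (−1.02, SE 0.24, adjusted p = 0.0304; −1.13 and 0.0307), and its call was lost in 5 of the 8 fits that left out 1 library (CT1 replicates 1, 2 and 3, CT21 replicates 2 and 4), with adjusted p up to 0.144 without CT1 replicate 1. Per1 stood at 6.04 to 8.16 CPM and 14.1 to 23.6 CPM, also apart (−1.27, SE 0.31, adjusted p = 0.0443), but its call was lost in all 8 such fits, where the adjusted p ran from 0.0561 to 0.162.

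**Figure D2:**
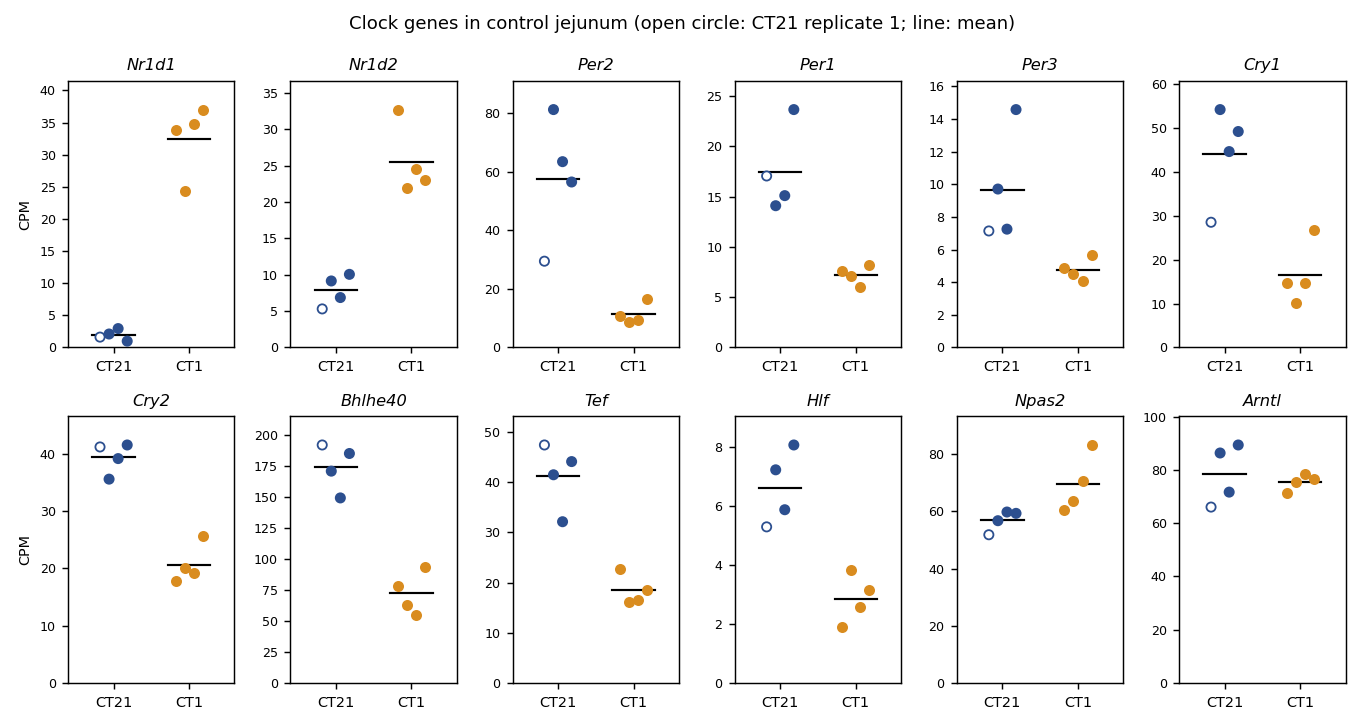
CPM of 12 clock genes in each control library at CT21 (blue) and CT1 (orange), each panel with its own linear axis from 0; the open circle is CT21 replicate 1 and the line the mean of 4. Nr1d1 and Nr1d2 sit higher at CT1, the inhibitors, Bhlhe40, Tef and Hlf lower, the Npas2 groups lie apart without passing the test, and the Arntl libraries of both times intermix between 66.1 and 89.4 CPM.

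The positive limb did not pass. Arntl read 71.4, 75.4, 78.5 and 76.5 CPM at CT1 and 66.1, 86.4, 71.7 and 89.4 CPM at CT21, so the groups overlapped (log2 fold change −0.06, SE 0.13, adjusted p = 0.889). For Clock the value of CT21 replicate 1 was 46.3 CPM against 105 to 134 CPM in the other CT21 libraries and 104 to 120 CPM at CT1 (0.18, SE 0.25, adjusted p = 0.791; −0.04 and 0.985 without that library). Npas2 stood at 60.4 to 83.2 CPM and 51.8 to 59.8 CPM (0.29, SE 0.15, adjusted p = 0.444), which do not overlap. Rora, Csnk1d and Csnk1e, which encode an activator and a pair of Per kinases, had log2 fold changes between −0.21 and 0.45 and adjusted p of at least 0.46. Ciart and Bhlhe41 lay at or under 1.38 CPM in every library, too few counts to show a change. Over the 18 core clock genes, 2 rose, 7 fell (6 without CT21 replicate 1, Per1 being lost, and 4 when the model held only the 8 libraries) and 9 did not pass, with a median log2 fold change of −0.18 (−0.16 without CT21 replicate 1) against −0.02 over all genes tested.

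Among the output factors the D-box activators Tef and Hlf fell. Tef read 22.7, 16.2, 16.6 and 18.6 CPM at CT1 and 47.4, 41.5, 32.1 and 44.1 CPM at CT21, with no overlap (log2 fold change −1.15, SE 0.14, adjusted p = 6.6e-07; −1.07 and 1.4e-05 without CT21 replicate 1). Hlf was lower in all 4 CT1 libraries, at 1.90 to 3.82 CPM against 5.30 to 8.08 CPM (−1.21, SE 0.26, adjusted p = 0.0174; −1.29 and 0.0233), and was lost without CT1 replicate 1 or 3 or CT21 replicate 2 or 4, with adjusted p up to 0.144. Dbp, the remaining activator, stood at 0.647 to 1.56 CPM and 1.57 to 2.30 CPM, where a few reads separate the times (−0.83, SE 0.36, adjusted p = 0.34). Nfil3, their repressor, read 33.7 to 36.5 CPM and 25.3 to 41.9 CPM (−0.01, SE 0.21, adjusted p = 0.992). The Krüppel-like factors Klf9, Klf11 and Klf15 had log2 fold changes of 0.18, 0.66 and 0.76 and Klf10 −0.88, none past the threshold with all libraries. In all, 2 of the 8 output factors fell and none rose, with a median of −0.42 (−0.33 without CT21 replicate 1).

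The promoters of some of these genes carry the elements named above, and 4 are shown because they show an E-box, a D-box or neither ahead of genes that passed. They are the bases before the RefSeq start site (GRCm38.p6), less any that the GENCODE M21 annotation places in an exon of the gene, written 5′ to 3′ on the gene's strand. Capitals mark an E-box (CACGTG) or a D-box (TTATGTAA or TTACGTAA), searched on both strands in the 250 bases before the start; the motifs do not overlap. Cry1 lies on chr10:85185065-85185304 (minus strand) with an E-box 60 bases before the start, Tef at an internal start on chr15:81811164-81811413 (plus strand) with an E-box at 138 bases, Per3 on chr4:151044666-151044915 (minus strand) with D-boxes at 205 and 158 bases, and Nr1d1 on chr11:98775378-98775627 (minus strand) with none of these letters.
Cry1: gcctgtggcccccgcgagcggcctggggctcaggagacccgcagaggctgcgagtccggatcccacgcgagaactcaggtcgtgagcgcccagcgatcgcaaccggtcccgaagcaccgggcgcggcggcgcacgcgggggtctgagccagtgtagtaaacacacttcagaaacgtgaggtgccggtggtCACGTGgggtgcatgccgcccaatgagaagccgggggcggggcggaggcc
Tef: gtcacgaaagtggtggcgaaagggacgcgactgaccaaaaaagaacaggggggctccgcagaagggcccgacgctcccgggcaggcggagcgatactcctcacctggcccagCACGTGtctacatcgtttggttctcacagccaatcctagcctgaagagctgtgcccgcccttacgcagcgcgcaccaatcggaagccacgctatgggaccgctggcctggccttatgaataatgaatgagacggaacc
Per3: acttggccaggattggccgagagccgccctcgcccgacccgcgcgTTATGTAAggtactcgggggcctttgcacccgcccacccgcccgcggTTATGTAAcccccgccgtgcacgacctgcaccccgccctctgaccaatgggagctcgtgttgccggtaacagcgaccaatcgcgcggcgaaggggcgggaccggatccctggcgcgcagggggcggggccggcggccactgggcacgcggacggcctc
Nr1d1: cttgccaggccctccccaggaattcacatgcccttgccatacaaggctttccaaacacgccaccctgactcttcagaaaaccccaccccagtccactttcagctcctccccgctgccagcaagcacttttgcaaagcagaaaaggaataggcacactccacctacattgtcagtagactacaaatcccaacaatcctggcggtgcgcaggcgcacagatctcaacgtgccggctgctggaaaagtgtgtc

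Of the genes with a window, an E-box lay in 3 of 21 that were higher at CT1 (14.3%), in 7 of 33 that were lower (21.2%) and in 1051 of all 11001 tested (9.55%). Among the genes also called without CT21 replicate 1 it lay in 1 of 10 higher and 2 of 12 lower (16.7%). A D-box lay in 0 of 21, 2 of 33 (6.06%) and 0.773% of all, and among the genes called in both fits in 0 of 10 and 1 of 12 (8.33%). These are descriptions of letters in a short window, and Per2 and Bhlhe40 have no entry in the table of windows.

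The other times of day place this pair on the daily curve. In control, Nr1d1 went on from 32.5 ± 5.6 CPM at CT1 to 142 ± 12.5 CPM at CT5 and was lowest at CT21 (1.91 ± 0.824; SD, n = 4 each). Per2 had its lowest mean at CT1 (11.5 ± 3.63 CPM) and its highest at CT13 (226 ± 31.2 CPM). Tef likewise was lowest at CT1 and highest at CT13 (194 ± 15.5 CPM). Of the 26 genes higher at CT1, 11 had their highest control mean at CT5, 9 at CT1 and 6 at CT9. Of the 49 lower genes, 29 had their lowest control mean at CT1 and 13 at CT5, and their highest fell at CT13 for 18, CT17 for 16 and CT21 for 14. The choice of genes by CT1 and CT21 favours such an order, so these are descriptions.

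**Figure D3:**
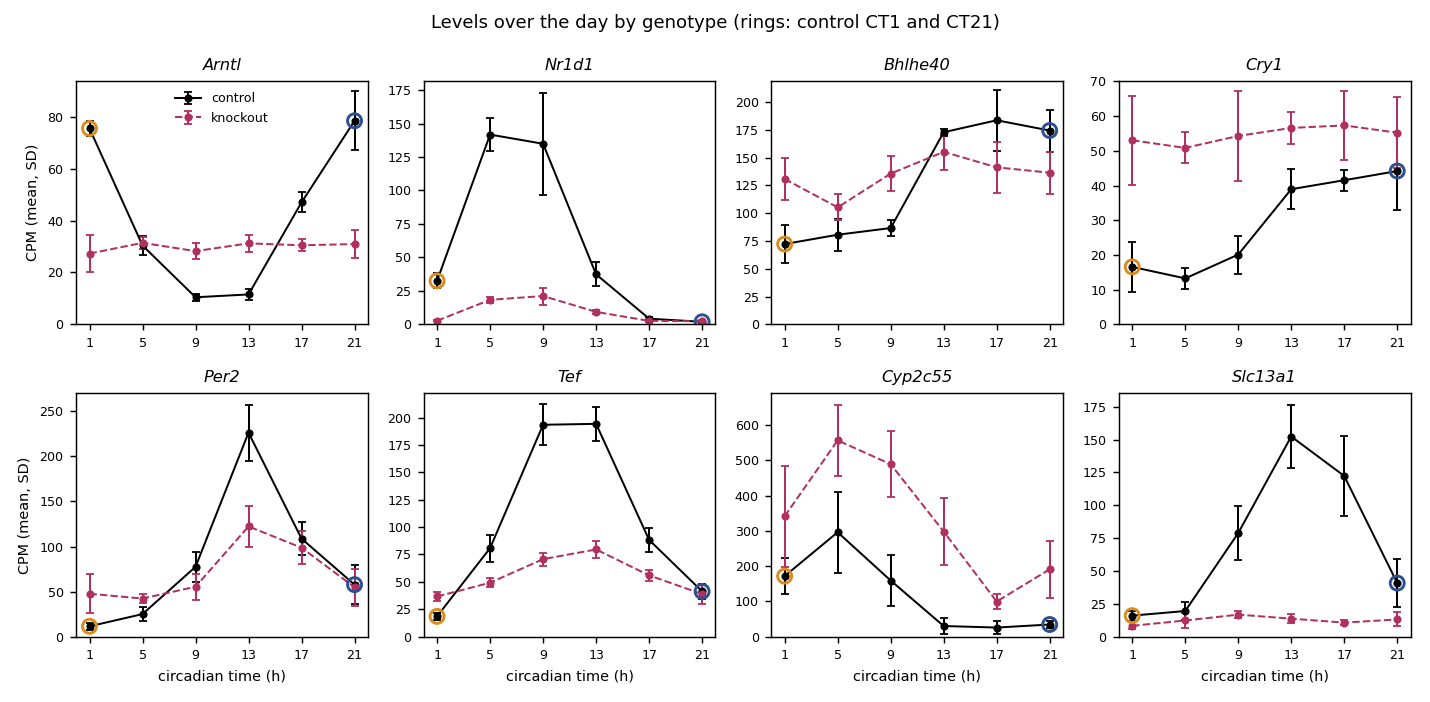
Mean CPM (SD bars; n = 4, and 3 for knockout CT9) of 8 genes against circadian time in hours, control as a solid black line and knockout dashed; rings mark control CT1 (orange) and CT21 (blue). Between the ringed points Nr1d1 and Cyp2c55 go up, Bhlhe40, Cry1, Per2, Tef and Slc13a1 go down, and the Arntl means differ by less than their SD at CT21.

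Among nutrient and drug handling genes the changes were few. Cyp2c55, a cytochrome P450 of the Cyp2c family, read 139, 144, 249 and 154 CPM at CT1 and 29.9, 29.3, 30.6 and 47.7 CPM at CT21. All CT1 libraries lay above all CT21 libraries (log2 fold change 2.32, SE 0.45, adjusted p = 0.00952; 2.26 and 0.0452 without CT21 replicate 1), and the call was lost without CT1 replicate 3 (0.0583). Of the 32 genes of xenobiotic metabolism it was the 1 that rose, none fell, and their median was 0.16 (0.13 without CT21 replicate 1). The Cyp2c genes are close copies, so reads shared among them may be placed with uncertainty.

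Sugar transport gave 2 rises. Slc2a7, which encodes the hexose transporter GLUT7, read 35.8, 30.8, 40.3 and 34.3 CPM at CT1 and 15.7, 18.8, 18.2 and 21.3 CPM at CT21, without overlap (log2 fold change 0.93, SE 0.18, adjusted p = 0.00952; 0.86 and 0.0452 without CT21 replicate 1), and its call was lost without CT1 replicate 3 (0.0583). Slc5a4a, a member of the sodium-glucose cotransporter family, read 74.2, 73.7, 89.3 and 44.7 CPM and 45.1, 32.2, 28.8 and 34.1 CPM. Its groups overlapped through CT1 replicate 4 and CT21 replicate 1 (1.01, SE 0.22, adjusted p = 0.0214; 1.16 and 0.0190), and the call was lost without CT1 replicate 1, 2 or 3 or CT21 replicate 2, 3 or 4, with adjusted p up to 0.12. Tkfc, a kinase of fructose breakdown chosen after its values were seen, fell from 455 to 612 CPM at CT21 to 280 to 366 CPM at CT1 (−0.63, SE 0.15, adjusted p = 0.0304), a call that was lost without CT21 replicate 1 (−0.52 and 0.18) or 4 or any 1 CT1 library (up to 0.191). The remaining 14 of 17 sugar genes did not pass, and the median of the list was −0.03 (0.01 without CT21 replicate 1).

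Slc13a1, the apical sodium-sulfate cotransporter gene, read 16.4, 17.6, 10.6 and 19.4 CPM at CT1 and 29.5, 29.5, 36.3 and 67.8 CPM at CT21. The groups were apart, with 1 high library at CT21 (log2 fold change −1.35, SE 0.29, adjusted p = 0.0233; −1.46 and 0.0269 without CT21 replicate 1), and the call was lost without CT1 replicates 1, 2 or 3 or CT21 replicate 4, with adjusted p up to 0.123. It was the 1 of 24 ion transport genes to pass with all libraries and without CT21 replicate 1, and 2 higher and 2 lower passed without the 5 departing libraries. Among 20 genes of peptide and amino acid uptake 1 rose, Slc6a20a, an imino acid transporter gene chosen after its values were seen, from 71.3 to 154 CPM at CT21 to 175 to 275 CPM at CT1 (1.15, SE 0.27, adjusted p = 0.0298; 1.14 and 0.121 without CT21 replicate 1). That call was also lost without CT1 replicate 1, 2 or 3 or CT21 replicate 2 or 3 (up to 0.169).

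Tsc22d3, a leucine zipper gene induced by glucocorticoids, fell sharply. It read 43.8, 46.7, 42.1 and 52.7 CPM at CT1 and 135, 146, 108 and 118 CPM at CT21, with wide separation (log2 fold change −1.45, SE 0.17, adjusted p = 4.5e-07; −1.42 and 2.1e-06 without CT21 replicate 1). Sgk1, a glucocorticoid- and salt-responsive kinase gene chosen after its values were seen, read 43.1 to 70.5 CPM at CT1 and 120 to 312 CPM at CT21 (−1.96, SE 0.45, adjusted p = 0.0298), and its call was lost without CT21 replicate 1 (−2.04 and 0.0635), 2 or 4 or CT1 replicate 1, 2 or 3 (up to 0.149). Of 16 glucocorticoid-responsive genes these 2 fell and the other 14 did not pass, with a median of −0.24 that became −0.12 without CT21 replicate 1.

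Kyat1, whose enzyme converts kynurenine to kynurenic acid and also acts on glutamine, read 30.4, 33.2, 27.6 and 50.8 CPM at CT1 and 99.3, 100, 71.3 and 98.1 CPM at CT21 (log2 fold change −1.38, SE 0.17, adjusted p = 6.6e-07; −1.33 and 4.4e-06 without CT21 replicate 1). Tcim, a small regulator of Wnt signalling, was at 52.6 to 84.9 CPM against 115 to 172 CPM (−1.06, SE 0.18, adjusted p = 9.6e-04; −1.03 and 0.00463). Pim1, a serine/threonine kinase gene, rose from 28.7 to 38.4 CPM at CT21 to 55.5 to 75.7 CPM at CT1 (0.97, SE 0.18, adjusted p = 0.0026; 1.02 and 0.00621). Usp2, a ubiquitin protease gene chosen after its values were seen, was at 21.4 to 27.8 CPM against 36.8 to 61.0 CPM (−0.89, SE 0.15, adjusted p = 0.00108; −0.70 and 0.0263). None of these 4 genes overlapped between the times, which for Kyat1, Tcim and Pim1 was a condition of being named.

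Smaller rises passed for Krba1 (0.88), Ncald, a neuronal calcium sensor family gene (0.78), Plbd1, a phospholipase B-like gene (0.60), Zc3h12d, a gene of the Regnase RNA-binding family (0.49), and Elp2, an Elongator subunit gene (0.38), as log2 fold changes. Their adjusted p-values lay between 0.0113 and 0.0298 with all libraries and between 0.0118 and 0.0346 without CT21 replicate 1. Each call was lost without some single libraries: Krba1 without CT1 replicate 3 or CT21 replicate 2 (adjusted p up to 0.0625), Ncald without CT1 replicate 1 or CT21 replicate 2 (0.0666), and Plbd1 without CT1 replicate 2 or CT21 replicate 2 (0.0582). Zc3h12d lost it without CT1 replicate 1 or 3 or CT21 replicate 2 or 3 (0.135), and Elp2 without CT1 replicate 1, 2 or 3 or CT21 replicate 2 or 4 (0.166). Larger fold changes than these came from sparse genes such as Igkv4-74 and Ly6g6c, named after their values were seen, with CT1 means of 0.194 and 0.0523 CPM; both were lost without CT21 replicate 1 (adjusted p = 0.127 and 0.0834), and Igkv4-74 is 1 of a family of near-identical segments.

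**Figure D4:**
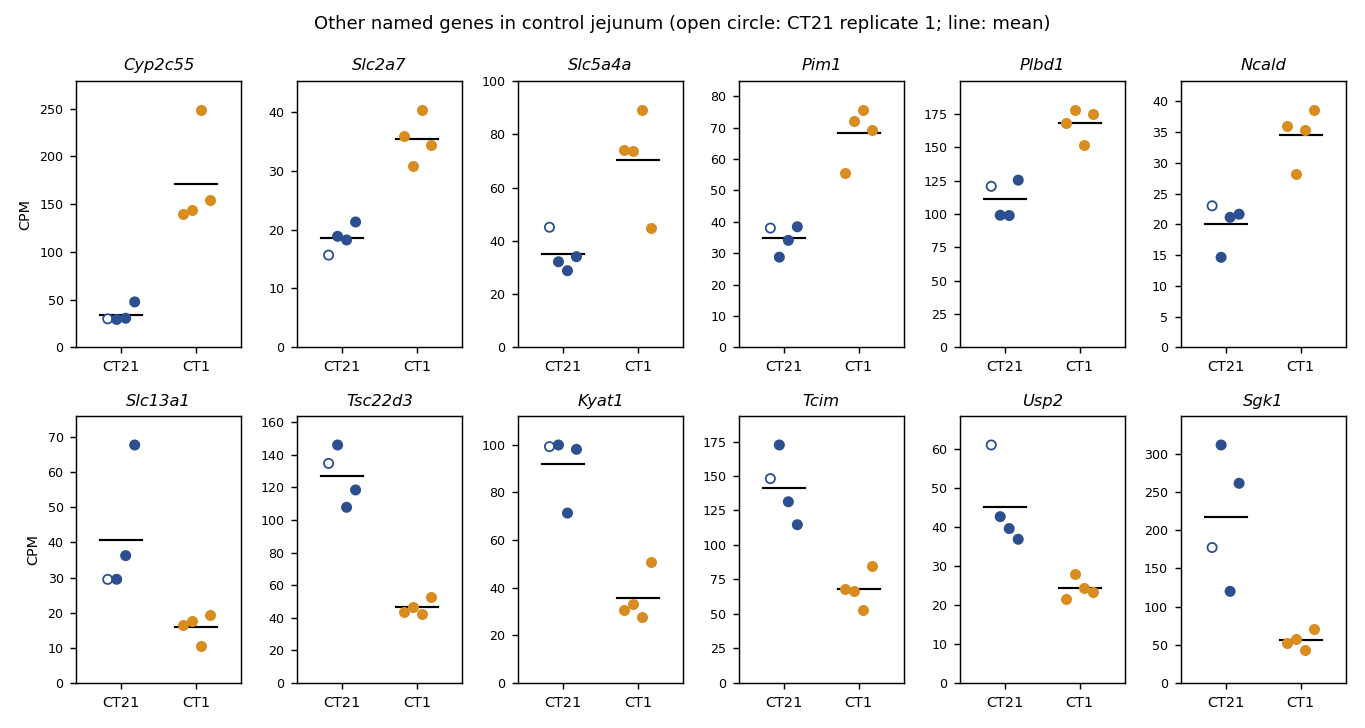
CPM of 12 genes outside the clock lists in each control library at CT21 (blue) and CT1 (orange), each panel with its own linear axis from 0; the open circle is CT21 replicate 1 and the line the mean of 4. Of these, Slc5a4a is the panel whose groups overlap, and Cyp2c55 has 1 CT1 library at 249 CPM above the other 3.

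Calls in cholesterol synthesis lay near the threshold, and leaving out any of several libraries removed them. With all libraries 6 of 25 genes of sterol synthesis fell and none rose, and 24 of the 25 fold changes were negative (median −0.54). The squalene synthase gene Fdft1 read 113 CPM in CT21 replicate 1, 56.7 to 69.0 CPM in the other 3 and 39.5 to 47.8 CPM in the CT1 libraries, a log2 fold change of −0.81 (SE 0.19, adjusted p = 0.0298; −0.55 and 0.238 without CT21 replicate 1). Cyp51, Sqle and Msmo1, genes of later enzymes of the pathway, and Insig1, whose protein restrains it, had log2 fold changes of −0.72, −0.70, −0.54 and −0.66. Without that library they were −0.58, −0.60, −0.45 and −0.68, and none passed (adjusted p = 0.18, 0.165, 0.2 and 0.0653). Without it none of the 25 passed and the median was −0.39, and without the 5 departing libraries 1 fell, Insig1 (−0.68, adjusted p = 0.013). The number that fell was also 0 without CT1 replicate 1 or 3 and 1 without CT1 replicate 2, against 4 to 7 without each of the other 4 libraries. The summed level of the list was 1498 to 1676 CPM at CT1 and 1920 to 2085 CPM in the other 3 CT21 libraries, so that the sums stood apart also without replicate 1, whose sum was 2223 CPM. Such separation was not particular to this list. Sums also stood apart for some lists with no member called with all libraries, such as heat shock, and overlapped for others, such as smooth muscle markers (values below). The 5 genes named here were chosen after their values were seen.

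No member of the remaining lists passed with all libraries. The lists with the lowest medians were MHC class II presentation (10 genes, median −0.76; −0.62 without CT21 replicate 1), markers of T cells and intraepithelial lymphocytes (11 genes, −0.58 and −0.43), interferon response with MHC class I (22 genes, −0.46 and −0.41) and heat shock (20 genes, −0.40 and −0.35). With all libraries 0 of 10, 0 of 11, 2 of 22 and 0 of 20 of these fold changes were positive. Summed levels were 1908 to 2909 CPM at CT1 and 3617 to 5462 CPM at CT21 for MHC class II, 149 to 344 CPM and 356 to 465 CPM for T cell markers, and 2813 to 3218 CPM and 3769 to 4157 CPM for heat shock. The members of a list share libraries and are not replicates, and the part of lymphocyte content in the MHC values was not tested. Enterocyte markers had a median of −0.33 (12 genes, 2 positive; −0.29 without CT21 replicate 1), with summed levels of 29751 to 36344 CPM at CT1 and 38193 to 51457 CPM at CT21 (up to 44060 CPM without that library). Fat absorption genes had a median of −0.27 over 26 genes (−0.18 without it). Without the 5 departing libraries 3 enterocyte and 3 fat absorption genes fell.

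Markers of cell types other than the epithelium could also vary with the piece of tissue taken. Smooth muscle markers summed to 2289 to 2980 CPM at CT1 and 2033 to 3535 CPM at CT21 (12 genes, median 0.05; 0.24 without CT21 replicate 1). Fibroblast and endothelial markers summed to 822 to 979 CPM and 659 to 854 CPM (10 genes, 0.26 and 0.31), and B and plasma cell markers to 2719 to 4067 CPM and 2740 to 6835 CPM (11 genes, −0.25 and −0.19). In each of these 3 lists CT21 replicate 1 gave the highest CT21 sum, and the highest of the others was 2549, 750.1 and 4916 CPM. Adipocyte markers had the highest median of any list (1.08 over 9 genes, 1.29 without CT21 replicate 1), with overlapping sums of 90.4 to 146 CPM and 75.3 to 152 CPM (up to 115 CPM without it). No marker of these 4 lists passed with all libraries, 2 fibroblast and endothelial markers were higher without the 5 departing libraries, and the lists' part in the results above was not tested.

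**Figure D5:**
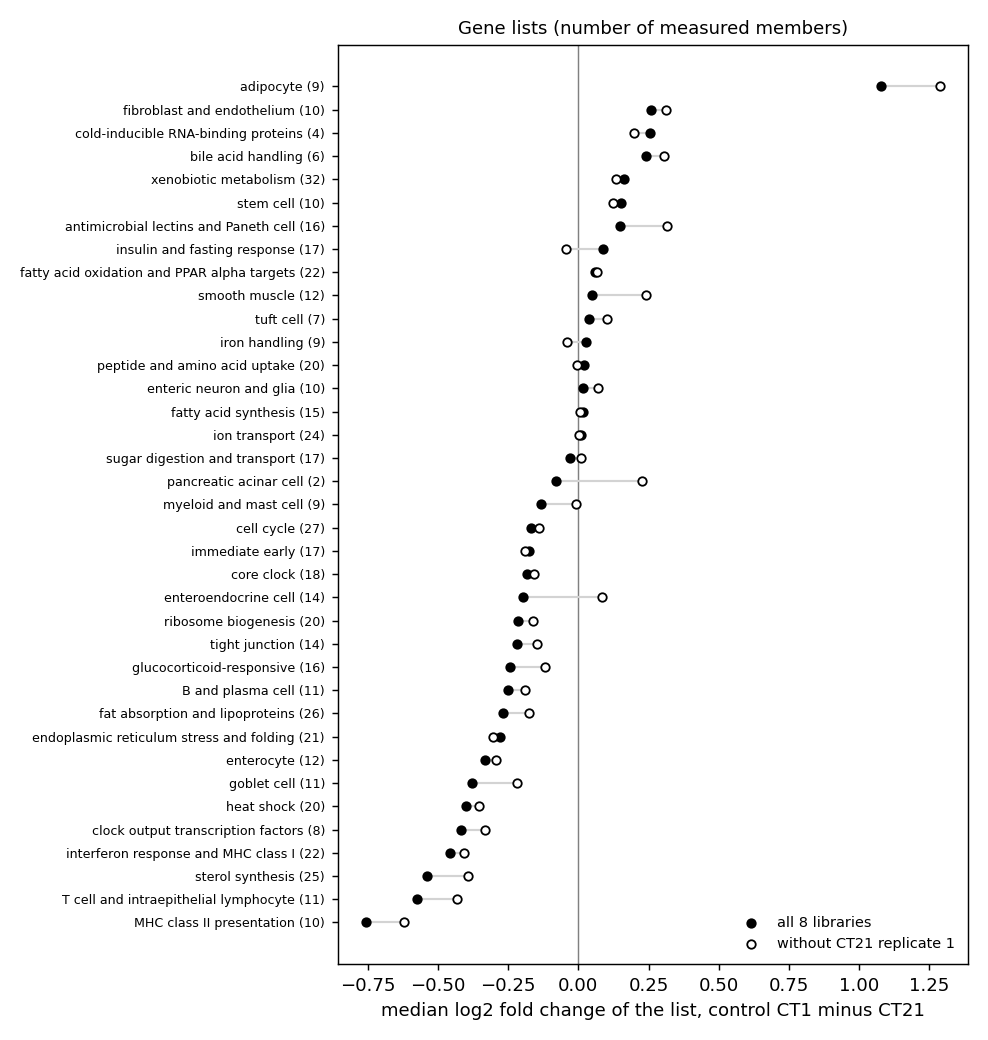
Median log2 fold change (control CT1 minus CT21, x axis) of each gene list with its number of measured members, with all 8 libraries (filled) and without CT21 replicate 1 (open). MHC class II presentation has the lowest median (−0.76, and −0.62 without that library) and adipocyte markers the highest (1.08, and 1.29 without it).

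Whether these changes need Bmal1 in the epithelium was addressed by testing the difference between the control change and the knockout change. Nr1d1 stood at 2.71 ± 0.481 CPM at CT1 and 2.35 ± 0.573 CPM at CT21 in knockout (SD, n = 4 each), and its log2 change was larger in control by 3.83 (SE 0.45, adjusted p = 8.0e-07; 0.0371 without the 5 departing libraries). Per2 stood at 47.6 ± 21.6 and 54.8 ± 20.3 CPM, with a difference of −2.14 (SE 0.40, adjusted p = 0.00868; 4.2e-04 without the 5). The values without the 5 rest on 1 knockout CT1 library and 3 at CT21, with the spread pooled over all groups. Across all genes 19 differed (0.121%), and 4 without the 5 libraries (0.0256%), Nr1d1 and Per2 among them.

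Among the other genes named, Bhlhe40 (−1.21), Kyat1 (−1.35), Tef (−1.07), Tsc22d3 (−1.25), Cry1 (−1.37) and Nr1d2 (1.96) also differed, with adjusted p of 0.00177, 0.00478, 0.00555, 0.0087, 0.0414 and 0.0407, and all of these were lost without the 5 departing libraries (0.259, 0.0944, 0.215, 0.256, 0.0944 and 0.402). Nr1d2 was lost without CT21 replicate 1 alone (0.13). For Cyp2c55, Slc2a7, Slc13a1, Pim1, Tcim, Per1, Per3 and Hlf the difference did not pass, with adjusted p between 0.242 and 0.478. Their knockout log2 changes were 0.84, 0.17, −0.65, 0.41, −0.62, −0.30, −0.15 and −0.40. Cry2, Usp2 and Krba1 did not pass either (adjusted p = 0.0554, 0.0551 and 0.13). Their knockout log2 changes were −0.02, 0.05 and −0.07 (SE 0.14, 0.15 and 0.17), each smaller than its SE. Of the 75 genes called in control, 54 had the same sign in knockout, against 42.1% of all genes tested. In knockout itself 0 of 15646 genes passed between CT1 and CT21, so a shared sign is not a shared call. Both figures come from the fit with all libraries. The departing libraries lay mostly at CT1 in knockout and at CT21 in control, and their part in these figures was not tested. Of the 75, 14 differed between genotypes; that test contains the control change by which they were chosen, so the count supports nothing further.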

How the data were processed

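Polyadenylated RNA of jejunum was sequenced from TruSeq Stranded mRNA libraries, per the labels' protocols. The authors deposited raw counts of reads per gene, 1 column per library. The submitters' processing notes name the build mm10, the aligner STAR 2.7.5c, the counter featureCounts 1.4.6, and also Trimmomatic 0.39, FastQC 0.11.5, DESeq2 1.22.0 and SAMtools 1.3.1. The sources used here give no annotation, strand setting or handling of multi-mapped reads. Values of overlapping or near-identical genes are therefore uncertain, and exons of Dbp, Tkfc, Fdft1, Cyp51 and Slc6a20a overlap an expressed gene on the other strand. Gene names and positions came from GENCODE M21, which matched 54349 of 55401 identifiers with their version and 792 without it, leaving 260.

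Groups came from the genotype and time in the sample titles, and replicate numbers are accession order. Genes were kept by edgeR's filterByExpr (minimum count 10, minimum total 15), 15646 in all. All 47 libraries were fitted in 1 model of the genotype and time groups (edgeR 4.0.16 in R 4.3.3, TMM scaling, robust quasi-likelihood, 35 residual degrees of freedom), so the 8 libraries share the spread of all. Standard errors were the log2 fold change divided by the square root of F. CPM values use TMM-scaled totals. Alternatives were other scalings, no filter, only the libraries compared, DESeq2 1.42.0, limma 3.58.1 voom with quality weights, and leaving out libraries. The script was tested on simulated data with 200 changed genes. It recovered 14 of 67 changes of 1.5-fold, 39 of 67 of 2-fold and 52 of 66 of 4-fold. Of its 113 calls 8 were false. A gene that did not pass may therefore still have changed. No 2 libraries of a group agreed within sampling noise (chi-square per degree of freedom 3.93 to 30.7).

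The comparison, gene lists and tests were chosen with earlier results of these data known. Named genes were the 10 largest rises and falls called with and without CT21 replicate 1, with a mean of at least 5 CPM and groups that did not overlap, leaving out predicted models and variable segments; every clock and clock output gene; and up to 4 members of each other list called in both fits. Lists with no such member are given by counts and medians. Some genes that entered the tests and counts are not reported here.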

Additional observations from a re-analysis of the deposited data

Results flagged for a closer look

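In a group of 4 libraries, a gap test on the highest or lowest value picks out about 1 in 20 groups by chance. Among 108 groups of named genes it picked 6 libraries. Cyp2c55 read 249 CPM in CT1 replicate 3 (139 to 154 in the others) and 47.7 CPM in CT21 replicate 4 (29.3 to 30.6). Kyat1 read 71.3 CPM in CT21 replicate 3 (98.1 to 100). CT1 replicate 4 was high for Sqle, at 61.1 CPM (41.0 to 41.6), and for the differentiation keratin gene Krt20, at 2285 CPM (1349 to 1453). Apoa1, an apolipoprotein gene, read 14724 CPM in CT21 replicate 1 (7921 to 8588). The same library stood out in the spread of relative log expression (0.820) and in the slope on gene length (−0.29). Sqle, Krt20 and Apoa1 were chosen after their values were seen.

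With all libraries the change from CT21 to CT1 differed between control and knockout, by a test of the difference itself, for Nr1d1 (3.83), Nr1d2 (1.96), Per2 (−2.14), Tsc22d3 (−1.25), Cry1 (−1.37), Kyat1 (−1.35), Bhlhe40 (−1.21), Tef (−1.07), Arf2 (−0.91) and Tkfc (−0.96), as control minus knockout on the log2 scale. The difference contains the control change, in which each of these genes was called. For Nr1d2, Tsc22d3, Cry1, Kyat1, Bhlhe40 and Tef it was lost without the 5 departing libraries, as given above. For Arf2, a small GTPase gene chosen after its values were seen, and Tkfc the adjusted p was 0.0407 each by edgeR, 0.132 and 0.141 without control CT21 replicate 1 alone, and 0.457 and 0.354 without the 5 departing libraries.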

How the results depend on the processing

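Counts of higher, lower and genotype-dependent genes were 26, 49 and 19 with all libraries. They were 12, 18 and 9 without control CT21 replicate 1; 56, 96 and 4 without the 5 departing libraries; 5, 10 and 2 with only the libraries compared; 60, 92 and 72 with DESeq2; and 147, 268 and 666 with limma-voom and quality weights. With no filter on low counts 13 genes were higher and 27 lower. Leaving out 1 of the 8 libraries gave 6 to 34, 10 to 74 and 8 to 22. Upper quartile and RLE scaling kept the counts within 1.5 times. No scaling moved the median of all genes by more than 0.015 on the log2 scale.

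The log2 fold changes of the 54 named genes were taken under 15 alternatives each. Of these values, 633 kept direction and side of the threshold, 141 lost it, 12 gained it and 24 changed sign. The sign changes were in Clock, Arntl, Bhlhe41 and Nfil3, none called. The 633 include genes not called with all libraries that stayed so, and only called genes could lose a call. The log2 fold change of Clock was −0.041 without control CT21 replicate 1 and −0.0446 without the 5. The log2 fold change of Bhlhe41 was 0.18 without CT21 replicate 1, 0.17 without the 5, 0.00949 with only the libraries compared, 0.00305 with upper quartile, 0.00049 with RLE, 0.00399 with DESeq2 and 0.12 with limma-voom. The log2 fold change of Nfil3 was 0.0884 without CT21 replicate 1, 0.0862 without the 5, 0.0156 with only the libraries compared, 0.00529 with upper quartile, 0.00869 with RLE, 0.00146 with no filter, 0.00892 with DESeq2 and 0.0593 with limma-voom. Leaving out 1 of the 8 libraries gave −0.041 to 0.37 for Clock, −0.44 to 0.18 for Bhlhe41, −0.12 to 0.0126 for Arntl and −0.14 to 0.0884 for Nfil3. The cause was not tested. No paired analysis was possible because the labels give no replicate numbers. At 4.34 to 5.43 M counts a library, 3 counts are 0.519 to 0.691 CPM, so genes such as Ciart and Bhlhe41 sit near that limit.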
